A study of Mus musculus with 6 samples.

Results

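Classical cadherins and the catenins that bind their tails were examined by symbol in tumour cells sorted from mice. The 10 genes, out of 18182 in the files, were 6 cadherins (Cdh1, Cdh2, Cdh3, Cdh11, Cdh13 and Cdh15) and 4 catenins (Ctnna1, Ctnnb1, Ctnnd1 and Jup), and each matched 1 gene. The tumour cells belong to the Lewis lung carcinoma (LLC) line, a lung cancer line of the mouse, and carry red fluorescent protein (LLC-RFP). They grew under the skin of wild type C57BL/6 mice, either injected alone (LLC alone, 3 libraries) or together with bone marrow-derived mesenchymal stem cells (LLC with BMSCs, 3 libraries), and were recovered by their red fluorescence from the primary cancer sites. Every library therefore comes from 1 line grown in a host with its own stroma, and in such sorted bulk samples fewer cells of a type and less RNA per cell cannot be told apart. The labels do not give the animals' age or say whether each library came from a separate animal, so the p values measure the spread between these libraries, which may be technical.

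In an adherens junction, the outer part of a classical cadherin binds a cadherin of the neighbouring cell. Its cytoplasmic tail holds β-catenin (Ctnnb1) or plakoglobin (Jup), which bind α-catenin (Ctnna1) and through it actin, while p120-catenin (Ctnnd1) binds the tail near the membrane and keeps the cadherin at the cell surface. β-Catenin is also the transcriptional arm of the Wnt pathway. E-cadherin (Cdh1) is the cadherin of epithelia and N-cadherin (Cdh2) is common in mesenchymal and neural cells, and a change from the first to the second is a usual reading of epithelial-mesenchymal transition (EMT). Cdh13 is a member of the family that is anchored by lipid and has no tail for catenins, so the name of the group fits it only in part.

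The deposited values were estimated counts of fragments, used for the tests, and FPKM, in which fragments are divided by the length of the transcript and the size of the library, used to compare genes with one another. The estimated counts summed to 33476347 to 46189113 per library, at which 3 counts are 0.065 to 0.0896 CPM, counts scaled to a common library total. The lowest FPKM listed in any library was 0.01, and a gene with no row in a library was taken as 0. Some libraries of a group were closer to each other than the rest. The mean chi-square per gene was 4.79 between replicates 1 and 2 of LLC alone and 3.03 between replicates 2 and 3 of LLC with BMSCs, against 19.1 to 60.4 for the other pairs within a group. With each of these close pairs summed to 1 library, the fall of Ctnna1 given below was no longer called.

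**Figure D1:**
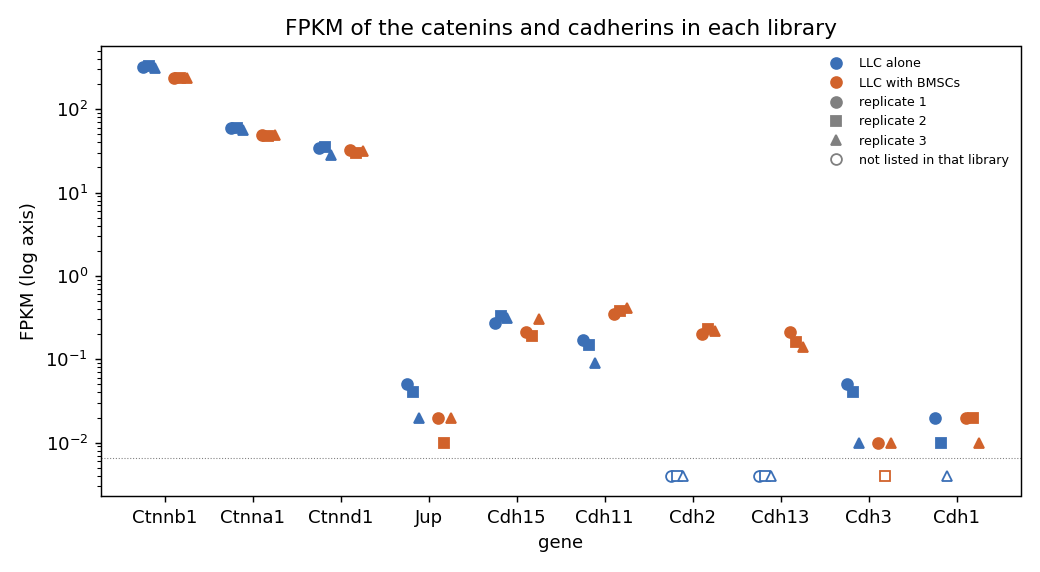
FPKM (log axis) of the 4 catenins and 6 cadherins in each of the 6 libraries, with open marks under the dotted line for libraries that list no value. Ctnnb1, Ctnna1 and Ctnnd1 lie between 27.8 and 326 FPKM, and every cadherin and Jup lies at or under 0.41 FPKM.

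The catenins and the cadherins stood at very different levels. Ctnnb1, Ctnna1 and Ctnnd1 were above 10 FPKM in every library, and the 7 other genes were under 1 FPKM in every library, as the plot of FPKM by library shows. In LLC alone, the order by mean FPKM was Ctnnb1, Ctnna1, Ctnnd1, Cdh15, Cdh11, Jup, Cdh3 and Cdh1, with Cdh2 and Cdh13 at 0. The libraries of neighbours in this order did not overlap down to Cdh11 and Jup, and Jup, Cdh3 and Cdh1 overlapped with the next gene each time. In LLC with BMSCs, Cdh11 came before Cdh15, Cdh2 and Cdh13. Cdh15 overlapped there with Cdh2 and Cdh2 with Cdh13, while Cdh1, Jup and Cdh3 were the lowest and overlapped as well.

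Among all genes listed in a library, Ctnnb1 ranked 216 to 256 in LLC alone and 274 to 295 in LLC with BMSCs by FPKM. Ctnna1 ranked 1448 to 1630 and 1711 to 1789. The best rank of any cadherin in any library was 11812, for Cdh11 in LLC with BMSCs replicate 3.

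Because the levels of Ctnnb1 and Cdh15 lie so far apart, the 250 bases before their start sites are shown as examples of an abundant and a scarce message, with every CG dinucleotide in capitals. RefSeq start sites were given for 4 of the 10 genes (Ctnnb1, Ctnnd1, Jup and Cdh15), on build GRCm38.p6, and the first listed start of each gene was used.
Ctnnb1, chr9:120933150-120933399, plus strand: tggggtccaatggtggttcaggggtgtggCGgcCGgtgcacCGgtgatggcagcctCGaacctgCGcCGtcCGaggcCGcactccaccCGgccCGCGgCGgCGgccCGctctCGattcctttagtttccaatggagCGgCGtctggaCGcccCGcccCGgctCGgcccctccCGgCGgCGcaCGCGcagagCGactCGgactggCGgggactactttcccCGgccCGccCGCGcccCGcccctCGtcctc
Cdh15, chr8:122848124-122848373, plus strand: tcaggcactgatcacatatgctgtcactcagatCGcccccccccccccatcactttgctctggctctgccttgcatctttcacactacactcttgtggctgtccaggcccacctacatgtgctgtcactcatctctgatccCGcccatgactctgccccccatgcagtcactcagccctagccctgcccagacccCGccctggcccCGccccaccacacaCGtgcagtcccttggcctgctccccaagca
The Ctnnb1 window holds 35 CG dinucleotides and 74.8% G and C, and the Cdh15 window 5 and 62.0%. The Jup window holds 13 and 62.0%, and that of Ctnnd1 26 and 66.8%. Over the first promoter of 27025 genes, the median was 6 CG dinucleotides and 52.0% G and C, and 97.2% of them had fewer CG dinucleotides than Ctnnb1 and 44.5% fewer than Cdh15. These are properties of the reference sequence and no measurement of the promoters was made.

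Of the 10 genes, 7 had counts high enough for edgeR's default filter and entered its quasi-likelihood test, with Benjamini-Hochberg adjustment over all 13353 tested genes. At an adjusted p of 0.05, 3 were called higher in LLC with BMSCs (Cdh2, Cdh11 and Cdh13) and 2 lower (Ctnna1 and Ctnnb1), and Cdh15 and Ctnnd1 were not called. Over all tested genes, 31.5% were called higher and 31.3% lower, and for 71.3% the groups did not overlap in normalized counts, so these shares are no result about the family. Cdh2 and Cdh13 passed the filter only through LLC with BMSCs. Cdh1, Cdh3 and Jup did not pass it.

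The cadherin messages that were higher in LLC with BMSCs were Cdh2, Cdh13 and Cdh11. Cdh2 had 0 counts in all 3 LLC alone libraries but 43, 48 and 46 in the 3 libraries of LLC with BMSCs. The groups did not overlap, and the 3 LLC with BMSCs libraries stood close together at 0.20 to 0.23 FPKM. An unlisted value of Cdh2 could hold at most 1 count. Set against 3 counts in each LLC alone library, Cdh2 was at least 13.9-fold higher. The edgeR adjusted p with no filter on low counts was 3.7e-05, which tests for any difference and not for this bound.

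Cdh13, or T-cadherin, had 0 counts in the 3 LLC alone libraries and 36, 27 and 23 in LLC with BMSCs. All 3 of these were above every LLC alone library, at 0.14 to 0.21 FPKM. Against 3 counts per library, Cdh13 was at least 8.74-fold higher. Its edgeR adjusted p with no filter on low counts was 2.0e-04, again for any difference and not for the bound.

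Cdh11, a type II cadherin known from mesenchymal cells and osteoblasts, was present in both groups. Its estimated counts were 40.5, 25.4 and 20.8 in LLC alone and 79.0, 84.5 and 91.8 in LLC with BMSCs, or 0.17, 0.15 and 0.09 FPKM against 0.35, 0.38 and 0.41. The lowest LLC with BMSCs library was above the highest LLC alone library. The log2 fold change was 1.45 (SE 0.23, edgeR adjusted p = 0.0010), which is 2.73-fold. Its counts were fractional in 6 of 6 libraries. In LLC alone replicate 1 all of its FPKM was assigned to a transcript assembled by the authors' pipeline, and in the other 5 libraries to NM_009866.

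**Figure D2:**
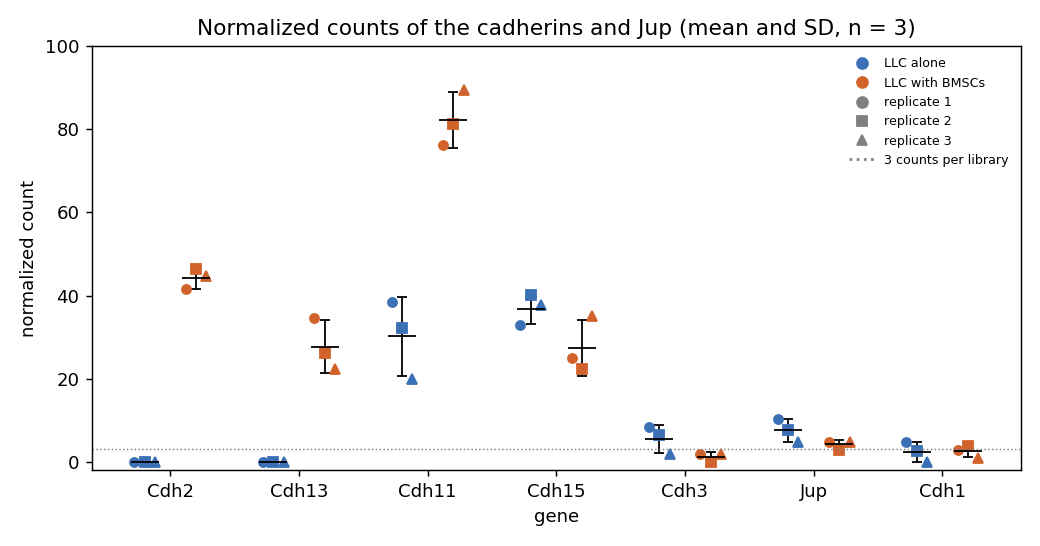
Normalized counts (counts scaled to the mean library size) of the 6 cadherins and Jup by library, with the mean and SD of 3 libraries as black bars and 3 counts per library as a dotted line. Cdh2 and Cdh13 are at 0 in LLC alone, Cdh11 does not overlap between the groups, and Cdh15, Cdh3, Jup and Cdh1 do.

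Markers listed for several other cell types were also read. Over all tested genes, 31.5% were called higher and 31.3% lower. Of 11 markers of BMSCs or fibroblasts, 8 were tested and 8 were called higher. The summed level of the list was 271 to 326 CPM in LLC alone and 670 to 702 CPM in LLC with BMSCs. Some of these markers were well expressed in LLC alone already. Col3a1 had a mean of 41.2 FPKM there and 100 FPKM in LLC with BMSCs. Pdgfra was at 5.78 and 8.13 FPKM and Pdgfrb at 6.59 and 8.75 FPKM. Thy1 and Cxcl12 were at 0 in every LLC alone library. In LLC with BMSCs their means were only 0.013 and 0.09 FPKM, and neither was tested. Col1a1, a fibrillar collagen chain, stood at 0.013 ± 0.0058 FPKM (SD, n = 3) in LLC alone and 2.003 ± 0.21 in LLC with BMSCs. Macrophage markers were called higher for 6 and lower for 1 of 7 tested, with summed levels of 9.75 to 11.8 and 20.8 to 21.0 CPM. The 1 called lower, Cd68, fell from a mean of 5.55 to 3.03 FPKM. Adgre1 and C1qa were at 0 in every LLC alone library. Their means in LLC with BMSCs were 0.48 and 0.053 FPKM, and C1qa was not tested. Adgre1 passed the filter only through LLC with BMSCs, so it could not have been called lower. Neutrophil markers were called higher for 5 of 5 tested, at 0.43 to 0.73 and 18.7 to 22.3 CPM, with Mmp8 at 0 in every LLC alone library. Of these 5, 4 had at most 3 counts in each LLC alone library. Like Cdh2 and Cdh13, these 4 passed the filter only through LLC with BMSCs, so none of them could have been called lower. Of the endothelial markers, 2 were tested, with 0 called higher and 1, Esam, called lower. The endothelial markers summed to 2.68 to 3.39 CPM in LLC alone and 2.07 to 2.51 CPM in LLC with BMSCs. Emcn, not tested, was at 0 in every LLC alone library and at a mean of 0.023 FPKM in LLC with BMSCs. Cdh5, the cadherin of this list, was at 0.01 FPKM in every LLC alone library and 0.05 to 0.08 FPKM in LLC with BMSCs, also not tested. Of the other untested markers, Kdr and Cldn5 had higher means in LLC with BMSCs and Tek and Tie1 lower ones. The part of these cells in the values of Cdh2, Cdh11 and Cdh13 was not tested.

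Cdh15, or M-cadherin, the cadherin of muscle precursors, was the most abundant cadherin of LLC alone. It had 35, 31 and 40 counts there and 26, 23 and 36 in LLC with BMSCs, and the groups overlapped through LLC with BMSCs replicate 3. The log2 fold change was -0.42 (SE 0.22, edgeR adjusted p = 0.13), with a 95% range, by a normal approximation, of -0.84 to 0.01. Without LLC with BMSCs replicate 3 it was -0.63 with an edgeR adjusted p of 0.049. Of 9 muscle and satellite cell markers, only 4 had a row, and Pax7, Myf5, Myod1, Myog and Myh4 had none. Of the 3 tested, Des and Megf10 were called lower and Acta1 was not called (log2 fold change 0.38). Ckm was not tested. The 4 markers with a row summed to 11.6 to 12.6 CPM in LLC alone and 5.78 to 7.15 CPM in LLC with BMSCs. The part of muscle cells in the Cdh15 values was not tested.

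The epithelial cadherins Cdh1 and Cdh3 were near the limit of detection in both groups. Cdh1 had 5, 2 and 0 counts in LLC alone and 3, 4 and 1 in LLC with BMSCs, and the groups overlapped. The ratio of its summed counts, 8 over 7 after scaling for depth, was 1.07 with an exact 95% interval of 0.34 to 3.47, so that a difference within this range was not detectable at this depth. The ratio of Cdh1 was 2.37 without LLC alone replicate 1, 0.68 without LLC alone replicate 3 and 0.80 without LLC with BMSCs replicate 2, so its direction rests on single libraries. Cdh3, or P-cadherin, had 9, 5 and 2 counts in LLC alone and 2, 0 and 2 in LLC with BMSCs. Its ratio was 0.23 (exact 95% interval 0.057 to 0.73), but the groups overlapped at 2 counts, and without the filter on low counts its edgeR adjusted p was 0.089. The ratio of Cdh3 was 0.35 without LLC with BMSCs replicate 2. These intervals cover counting error only.

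Other epithelial markers gave a mixed picture. Krt8, a simple epithelial keratin, was high in both groups at 95.3 ± 6.0 and 110 ± 2.9 FPKM (SD, n = 3), while its usual partner Krt18 was at 0.083 and 0.65 FPKM. Epcam was at 0.033 and 0.0067 FPKM on average. Of the 11 epithelial markers, 5 were tested, with 2 called higher (Krt8 and Krt18) and 2 lower (Grhl2 and Esrp2). Ocln, a junction gene, was at 1.24 and 1.33 FPKM and was not called. Grhl2, an epithelial transcription factor, was at 0.34 FPKM in LLC alone and 0.077 in LLC with BMSCs and was called lower. Apart from Krt8 and Ocln, the listed epithelial markers were therefore under 1 FPKM in cells labelled as lung carcinoma.

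β-Catenin was the most abundant of the 10 messages and fell in LLC with BMSCs. Ctnnb1 was at 320, 326 and 313 FPKM in LLC alone and 234, 238 and 236 FPKM in LLC with BMSCs. The groups did not overlap, and the libraries of each group lay within a narrow range. The log2 fold change was -0.46 (SE 0.05, edgeR adjusted p = 1.5e-04), a change of -27.3%. The GENCODE annotation places exons of Ulk4 on the opposite strand and of Mir7090 on the same strand within Ctnnb1 exons, and whether the counting used strand is not given in the sources used here.

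α-Catenin fell less. Ctnna1 was at 59.4, 59.0 and 55.9 FPKM in LLC alone and 48.5, 47.3 and 48.5 FPKM in LLC with BMSCs, and again every LLC with BMSCs library was below every LLC alone library. The log2 fold change was -0.29 (SE 0.05, edgeR adjusted p = 0.0021), a change of -18.3%. With the close libraries summed the log2 fold change was -0.28 and the edgeR adjusted p 0.062. Exons of Lrrtm2 lie on the opposite strand within Ctnna1.

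p120-Catenin was not called. Ctnnd1 was at 34.2, 34.8 and 27.8 FPKM in LLC alone and 32.3, 29.9 and 31.7 FPKM in LLC with BMSCs, with LLC alone replicate 3 the lowest of the 6 libraries. The log2 fold change was -0.06 (SE 0.09, edgeR adjusted p = 0.61), with a 95% range of -0.24 to 0.12. Without LLC alone replicate 3 it was -0.15 with an edgeR adjusted p of 0.022. With each library's trend over transcript length removed it was -0.24 with an edgeR adjusted p of 8.9e-04. The call for Ctnnd1 therefore turned on these choices. Exons of Gm28635 overlap those of Ctnnd1 on the same strand.

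Jup, plakoglobin, which can stand in for β-catenin on the tail and also belongs to desmosomes, was nearly silent. It had 11, 6 and 5 counts in LLC alone and 5, 3 and 5 in LLC with BMSCs, with overlapping groups. The ratio of summed counts was 0.55 (exact 95% interval 0.26 to 1.15).

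**Figure D3:**
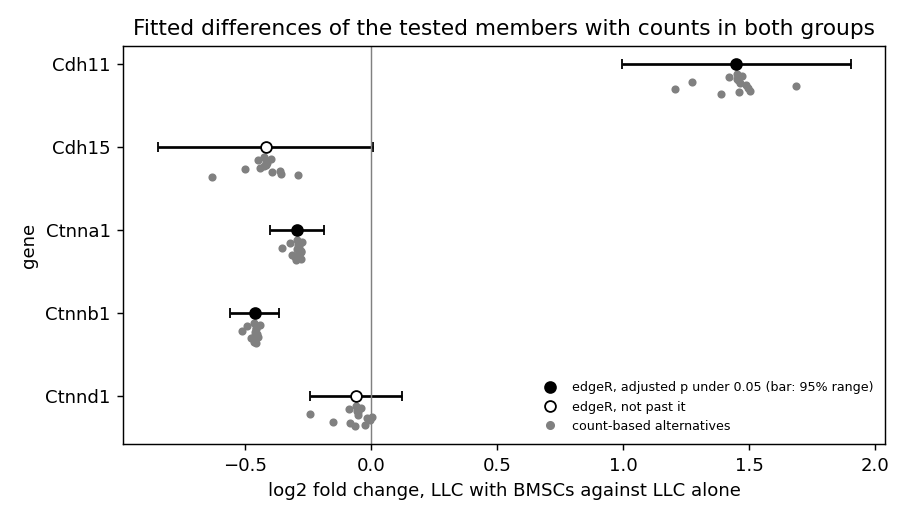
Log2 fold change of LLC with BMSCs against LLC alone for the 5 tested members with counts in both groups, with bars for the 95% range, filled points for an adjusted p under 0.05, and grey points for the alternatives on counts. Cdh11 lies above 0 and Ctnna1 and Ctnnb1 below 0 under every alternative drawn, and Ctnnd1 lies at 0.00 with the close libraries summed.

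The summed cadherin FPKM was higher and the summed catenin FPKM lower in LLC with BMSCs, although not every member moved with its sum and the cadherin sum includes Cdh13, which has no tail for catenins. The 6 cadherins summed to 0.51, 0.53 and 0.41 FPKM in LLC alone and 0.98 to 1.09 FPKM in LLC with BMSCs. The 4 catenins summed to 414, 419 and 397 FPKM and to 315, 316 and 316 FPKM. Neither pair of groups overlapped, and the exact permutation test gave p = 0.1 for each, the smallest that 3 against 3 libraries allow. The catenin sum was 857 ± 97.0 times the cadherin sum in LLC alone and 309 ± 16.9 times in LLC with BMSCs (SD, n = 3, exact permutation p = 0.1). FPKM is deposited to 2 decimals, so the small cadherin values are coarse.

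The cadherin pool also differed in its make-up. Cdh15 gave 52.9%, 62.3% and 75.6% of the summed cadherin FPKM in LLC alone and 21.0%, 19.4% and 27.5% in LLC with BMSCs. Cdh11 gave 33.3%, 28.3% and 22.0% in LLC alone and 35.0%, 38.8% and 37.6% in LLC with BMSCs, where it was the leading cadherin in every library. Cdh2 went from 0% to 21.2% ± 1.95, and Cdh13 from 0% to 16.7% ± 4.1 (SD, n = 3). The groups overlapped for none of these 4 shares (exact permutation p = 0.1 for each, the smallest possible). The shares are parts of 1 sum and so are not separate results, since counts of Cdh2 and Cdh13 lower the share of Cdh15. Cdh15 itself had means of 0.30 and 0.23 FPKM, with overlapping groups, and was not called. Cdh1 gave 3.92% or less in every library.

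Within the catenins, the ratios between the abundant members differed as well. Ctnnb1 was 5.51 ± 0.11 times Ctnna1 in LLC alone and 4.91 ± 0.11 times in LLC with BMSCs (SD, n = 3, FPKM). It was 9.37 to 11.3 times Ctnnd1 in LLC alone and 7.25 to 7.97 times in LLC with BMSCs. The groups did not overlap in either ratio (exact permutation p = 0.1 for each).

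Transcripts were listed separately for Ctnnd1, Ctnnb1 and Cdh11. p120-catenin is made from several start codons and with alternative exons, and its forms with the first start are known from mesenchymal cells and those with a later start from epithelial cells. Stretches with the start codons, in capitals, and an alternative exon are shown from the GENCODE M21 transcripts on GRCm38, minus strand. The second stretch is the first 117 coding bases from the later start, which the transcripts with the first start hold as well.
First coding exon with the first start, chr2:84624270-84624464: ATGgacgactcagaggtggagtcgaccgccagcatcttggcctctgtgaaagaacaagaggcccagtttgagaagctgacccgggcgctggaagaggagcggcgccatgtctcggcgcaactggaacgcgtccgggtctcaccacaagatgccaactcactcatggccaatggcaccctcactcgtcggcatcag
Coding part after the later start, chr2:84620835-84620951: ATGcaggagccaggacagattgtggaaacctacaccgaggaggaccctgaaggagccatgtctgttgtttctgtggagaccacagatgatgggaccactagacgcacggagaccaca
Alternative exon of 63 bases, chr2:84605184-84605246: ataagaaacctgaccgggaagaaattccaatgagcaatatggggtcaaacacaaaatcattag
The later start lies 101 codons after the first. NM_001085449 lacks the first coding exon and begins at the later start, and NM_001085448, NM_001085450, NM_001085453 and NM_007615 begin at the first.

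The transcript with the later start held a small share of Ctnnd1 in all 6 libraries. It held 10.3%, 7.91% and 9.77% of the summed Ctnnd1 FPKM in LLC alone and 9.32%, 7.92% and 10.03% in LLC with BMSCs, with a difference of -0.24 percentage points (exact permutation p = 0.8). Of the RefSeq transcripts alone it held 11.7%, 14.3% and 18.05% in LLC alone and 16.3%, 9.77% and 11.2% in LLC with BMSCs, a wider spread with overlapping groups (exact permutation p = 0.5). The first-start RefSeq transcripts held 77.8%, 47.5% and 44.4% in LLC alone and 47.8%, 73.2% and 79.8% in LLC with BMSCs. This spread within each group was taken up by 2 transcripts that the authors' pipeline assembled, which held 11.9% to 45.8% in LLC alone and 10.2% to 42.9% in LLC with BMSCs and whose start is not known here. Among the RefSeq transcripts, those with the 63-base exon held 36.8% to 60.3% in LLC alone and 49.9% to 62.7% in LLC with BMSCs, and the groups overlapped (exact permutation p = 0.3).

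**Figure D4:**
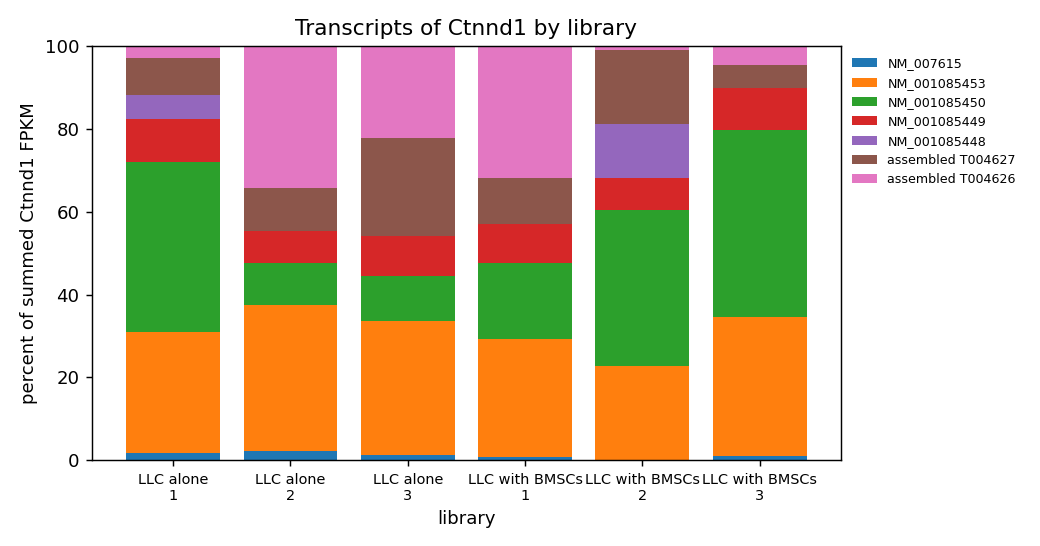
Share of each of the 7 listed Ctnnd1 transcripts in the summed Ctnnd1 FPKM (percent, stacked to 100) in each library. NM_001085449, the transcript with the later start, holds 7.91% to 10.3% in every library, while NM_001085450 and the assembled transcripts vary widely within each group.

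The Ctnnb1 transcripts NM_007614 and NM_001165902 code for the same protein and differ in their untranslated parts. NM_007614 held 54.5%, 52.9% and 36.5% of the Ctnnb1 FPKM in LLC alone and 54.0%, 42.5% and 39.8% in LLC with BMSCs. The groups overlapped, and the spread within each was larger than the difference between them (exact permutation p = 0.9).

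Genes that act with the cadherins and catenins were read from lists and are given by their counts, beside a median log2 fold change of 0.01 and shares of 31.5% called higher and 31.3% called lower over all tested genes. With so many genes called in both directions and lists this short, nothing particular to a list is read from its counts. Of 14 other type I and type II cadherins, 6 had a row and 1, Cdh24, was tested and not called. Among those not tested, Cdh5 had a higher mean in LLC with BMSCs (0.01 and 0.063 FPKM). Cdh19, Cdh20 and Cdh22 had lower means there. Of 31 cadherin superfamily genes outside the classical group, 11 were tested, with 4 called higher and 3 lower and a median log2 fold change of 0.16. Pcdh7, a protocadherin, rose from 3.06 ± 0.45 to 7.38 ± 0.09 FPKM (log2 fold change 1.28, SE 0.10, edgeR adjusted p = 2.3e-05). Fat1, a giant cadherin, rose from 3.51 ± 1.35 to 7.71 ± 0.46 FPKM (log2 fold change 1.12). Both were far above every classical cadherin in FPKM. Of 14 desmosomal genes, 4 were tested and 2, Dsp and Dsc1, were called lower, both from at or under 0.063 FPKM, with a median of -1.12, or -1.08 with Dsc1 at its bound against 3 counts.

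Among 23 other catenins and plaque proteins of the adherens junction, 19 were tested, with 5 called higher, 2 lower and a median log2 fold change of 0.11. Actn1, an actin crosslinker, rose from 82.0 ± 6.6 to 141 ± 7.0 FPKM (log2 fold change 0.76), and Vcl, vinculin, which binds stretched α-catenin, from 11.8 ± 1.9 to 18.7 ± 0.56 FPKM (log2 fold change 0.65). Ajuba, a LIM protein that binds α-catenin, fell from 16.9 ± 0.86 to 12.1 ± 0.39 FPKM (log2 fold change -0.51), and Limd1, a related LIM protein, by 0.24 on the log2 scale, with overlapping groups. These actin-linked partners included called genes in both directions while Ctnna1 fell.

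**Figure D5:**
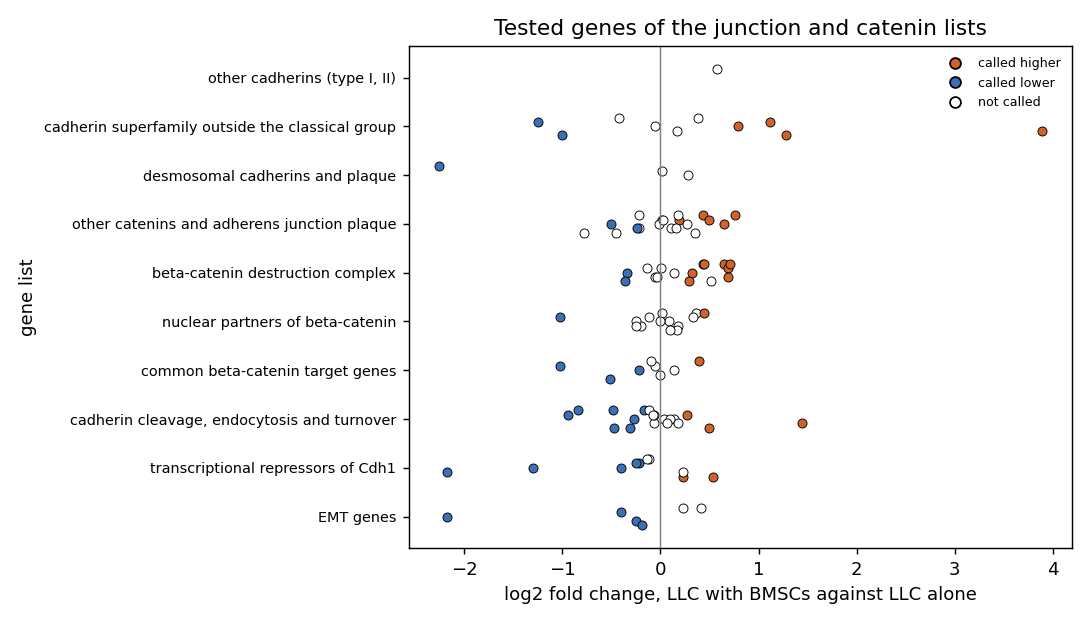
Log2 fold change of every tested gene of the 10 lists, filled where called higher or lower at an adjusted p under 0.05. The 4 genes with a group at or under 3 counts in every library (Pcdh15, Dsc1, Ptprk and Cdh2) are left out because their fitted value is no bound.

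The destruction complex, which marks β-catenin for degradation, had all 16 genes tested, with 8 called higher, 2 lower and a median log2 fold change of 0.30. Dvl3 rose from 5.91 ± 1.23 to 9.79 ± 0.67 FPKM and Dvl1 from 19.9 ± 0.68 to 32.6 ± 0.72 FPKM, by log2 fold changes of 0.71 and 0.69. Both are Dishevelled proteins, which relay the Wnt signal against the complex, so these members do not do what the name of the list says. Dvl2, also a Dishevelled protein, fell from 16.6 ± 0.24 to 13.1 ± 0.14 FPKM and Csnk1e, a casein kinase, from 52.3 ± 1.10 to 41.6 ± 0.99 FPKM.

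Of 14 nuclear partners of β-catenin, all were tested, with 1 called higher and 1 lower and a median of 0.05. Smarca4, a chromatin remodeller, rose from 34.3 ± 5.5 to 47.2 ± 4.2 FPKM, and Tcf7, a DNA-binding partner, fell from 1.28 ± 0.15 to 0.66 ± 0.04 FPKM. Of 15 common β-catenin target genes, 8 were tested, with 1 called higher, 3 lower and a median of -0.08. Apcdd1, a Wnt inhibitor at the membrane, rose from 8.43 ± 0.71 to 11.2 ± 0.68 FPKM, and Nkd1, a feedback inhibitor, fell from 1.02 ± 0.10 to 0.73 ± 0.07 FPKM, beside Tcf7, which is in both lists. Axin2, the most used target, was at 0.35 and 0.34 FPKM and was not called (log2 fold change -0.05, SE 0.21).

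Of 20 genes for cleavage, endocytosis and turnover of cadherins, all were tested, with 4 called higher, 7 lower and a median of -0.06. Adam10, the protease that sheds cadherin ectodomains, rose from 29.4 ± 3.5 to 36.02 ± 1.05 FPKM, and Ptprj, a receptor phosphatase, from 4.73 ± 0.69 to 6.77 ± 0.21 FPKM. Psenen, a subunit of γ-secretase, fell from 67.1 ± 8.0 to 35.5 ± 0.46 FPKM, and Ptprm, a phosphatase that binds cadherins, from 5.95 ± 0.96 to 3.37 ± 0.20 FPKM.

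Of 11 transcriptional repressors of Cdh1, 10 were tested, with 2 called higher, 5 lower and a median of -0.18. Snai2 fell from 59.4 ± 2.2 to 13.3 ± 0.41 FPKM (log2 fold change -2.18, SE 0.06, edgeR adjusted p = 2.9e-07) and Twist2 from 104 ± 13.7 to 42.6 ± 1.07 FPKM (log2 fold change -1.30). Zeb2 rose from 5.74 ± 0.86 to 8.43 ± 0.28 FPKM (log2 fold change 0.54) and Tcf3 from 33.4 ± 0.75 to 39.6 ± 1.9 FPKM (log2 fold change 0.22). Cdh1 itself stayed at 5 counts or fewer in every library. In a list of 8 genes used as PCR readouts of EMT, 7 were tested, with Cdh2 called higher, 4 lower and a median of -0.18. Snai2 and Snai1 had the largest falls among them, Snai1 from 19.3 ± 1.3 to 14.8 ± 1.6 FPKM (log2 fold change -0.40, edgeR adjusted p = 0.0068).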

How the data were processed

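RNA sequencing of sorted LLC cells was analysed in 6 libraries, grouped by the sample labels. For genes and for transcripts, the authors deposited estimated counts, which are not normalized, and FPKM values, which divide fragments by transcript length and library size. The submitters' processing notes name HISAT, StringTie, Cufflinks and GATK and the build mm8; the quantifier and strand setting are not given in the sources used here. A series-wide FPKM table was not used.

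Counts were rounded and tested with edgeR 4.0.16 in R 4.3.3 (TMM, default filter, quasi-likelihood test, Benjamini-Hochberg over all tested genes, threshold 0.05). Where no library of a group exceeded 3 counts, the fold is a bound against 3 counts per library. Untested genes were given the ratio of summed counts with an exact (conditional Clopper-Pearson) 95% interval. The 95% range of a log2 fold change is a normal approximation from its SE, which is narrower than the quasi-likelihood test implies. Single quantities used two-sided exact permutation tests. DESeq2 1.42.0 and limma 3.58.1 were alternatives. The edgeR and DESeq2 fits were tested on simulated data. With 33476347 to 46189113 counts per library, the cadherins rest on 91.8 counts or fewer.

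The 10 genes and all lists were chosen with earlier results of these data known. Named list genes were the 2 largest rises and falls among called genes with a mean of at least 1 FPKM in a group; other list genes, markers and the ratios between catenins were chosen after their values were seen.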

Additional observations from a re-analysis of the deposited data

How the results depend on the processing

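Over 47 results and 335 values under alternatives, 309 were counted as unchanged, by a rule that differed with the kind of result. Fold changes had to keep their direction and side of the threshold, and sums and shares to move by less than the replicate spread. Ratios of summed counts had only to stay inside their exact interval, and numbers of called genes within 1.5 times. The 309 therefore include Cdh1 ratios of 0.68 and 2.37, which point in opposite directions, and 3 members called lower in place of 2. The fall of Ctnnb1 (log2 fold change -0.51 to -0.44) and the rise of Cdh11 were called at an adjusted p under 0.05 under every alternative in which they were tested, and neither at the stricter threshold given below. The number called higher was 3, but 1 with at least 10 counts in every library and 0 with limma on log2(FPKM + 1) or log2(FPKM + 0.1), filters that leave out Cdh2 and Cdh13, and in limma every cadherin. The number called lower was 2, but 1 with close libraries summed, where Ctnna1 was at -0.28, and 0 at an adjusted p under 0.001 with a log2 fold change of 1 or more in size. It was 3 with the length trend removed, and without LLC alone replicate 3 or LLC with BMSCs replicate 3. Ctnnd1 was at -0.24 with the length trend removed and reversed to 0.0041 with close libraries summed, and leaving out 1 library gave -0.15 to -0.0030. For Cdh15 leaving out 1 library gave -0.63 to -0.29. With CPM in place of FPKM, the cadherin sum was 2.47 times that of LLC alone in place of 2.12, the catenin to cadherin ratio 0.30 times in place of 0.36, and the Cdh2 share differed by 23.8 in place of 21.2 percentage points. The causes of these moves were not tested except where the filter removes the genes.

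List counts moved by over 1.5 times in 13 of 60 cases. With the length trend removed, the called lower numbered 5 in place of 3 for the cadherin superfamily, 5 in place of 2 for plaque proteins, 4 in place of 2 for the destruction complex, 3 in place of 1 for nuclear partners and 2 in place of 4 for EMT genes, and the called higher 1 in place of 0 for desmosomal genes and 2 in place of 1 for nuclear partners. With library size alone, desmosomal genes had 1 called higher, nuclear partners 2 called higher, plaque proteins 1 called lower and EMT genes 2 called lower. With DESeq2, nuclear partners and EMT genes each had 2 called higher.

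No pairing of libraries by equal replicate numbers was seen. The correlations of their deviations were 0.08, -0.11 and 0.06, against -0.16 to 0.15 for unequal numbers. Such weak correlations cannot exclude a pairing in the experiment. With the replicate number as a block, 3 members were called higher and 2 lower, with log2 fold changes of 1.46 for Cdh11, -0.42 for Cdh15, -0.29 for Ctnna1, -0.46 for Ctnnb1 and -0.05 for Ctnnd1, and no call of a member changed. Depth limits Cdh1, Cdh3 and Jup, which hold 22 summed counts or fewer in a group.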
